A study of Prunus persica with 8 samples.

Results

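The proximal part of peach (Prunus persica) scaffold 3 comprised the genes whose midpoint lay before a boundary 2 Mb short of the weeping locus. The last of them ends at 13599677. These were 1527 of the 2932 genes on that scaffold and of 27864 in the whole table, and they were chosen by position alone. The stretch serves as the loosely linked contrast to the 4 Mb around WEEP (15601137 to 15603955), the gene at that locus. RNA came from lateral branch tips of 4 trees of standard growth habit (trees 7, 8, 9 and 10) and of 4 weeping trees (trees 1, 2, 3 and 4). All 8 were mature, field-grown trees of 1 segregating F2 population raised from breeding parents, and none was a cultivar. Each library held the shoot tips of 1 branch of 1 tree, and the labels call the trees biological replicates. No genotype is given for any position, so the haplotypes that each tree carried on scaffold 3 are not known here.

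Weeping peach trees carry branches that bend downward, while standard trees grow upright or spreading. The trait is recessive, so the weeping trees of an F2 population carry the same haplotype on both chromosomes at the locus. Recombination loosens this with distance, and far from the locus trees of one habit can carry different haplotypes.

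Reads assigned to genes ranged from 17011614 to 21584724 per library, and 4.47 to 4.89% of them fell in the proximal stretch. Between 1080 and 1107 of its genes had a read in a given tree. Of the 1527 genes, 927 had enough reads to be tested (60.7%, against 66.5% of the whole table), 281 had too few, and 319 had no read in any tree. The files pair no names with the identifiers, so genes are given by position, and neither their roles nor the tissue label could be checked. In whole shoot tips, fewer cells of a type and less RNA per cell cannot be told apart.

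The first question was whether standard and weeping trees differed here as often as elsewhere. They did so at about the rate of the whole table: 105 of the 927 tested genes changed (11.3%), against 11.5% of all 18520 tested genes, by edgeR's quasi-likelihood test on read counts at a Benjamini-Hochberg adjusted p of 0.05. In weeping trees 46 of them were higher and 59 lower, where the whole table had 5.33% higher and 6.18% lower. On the same scaffold, 63 of 410 tested genes (15.4%) changed in the 4 Mb around WEEP and 86 of 633 beyond them, and on the other scaffolds the share was 11.3%. The difference between these shares was not tested.

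The sizes of the differences were also near those of the whole table. The median absolute log2 fold change of tested genes was 0.25 in the proximal stretch, 0.27 around WEEP and 0.23 over all genes. The median SD of log2 levels between trees of a habit was 0.22 in the stretch and 0.21 over all genes. It describes single trees, while the fold change compares 4 trees with 4, so these values are not on the same scale. By edgeR's test 32.5% of tested genes of the stretch had an unadjusted p under 0.05, against 31.2% of the table. Changed genes had a median log2 fold change of 0.56 where they were higher and -0.90 where they were lower in weeping trees. At least 2-fold changes were found in 28 genes that were lower and 10 that were higher, against 2.9 and 0.934% of all tested genes. Both directions together made 4.10% of the stretch and 3.83% of the table. The changes ended at -3.02 and 2.22 on the log2 scale, and both ends rest on few reads. At 2804948 (-3.02) counts were 41, 17, 29 and 13 for the standard trees against 2, 0, 5 and 5 for the weeping ones. At 2500078 (2.22) counts were 3, 7, 10 and 1 against 33, 37, 27 and 8, so the habits overlapped. Around WEEP the changes ended at -8.09, which is WEEP itself, and 3.78. Beyond those 4 Mb they ended at -3.05 and 7.43, and on the other scaffolds at -4.25 and 3.68. The trees of the habits did not overlap for 181 tested genes (19.5%), against 18.7% of the table.

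The number of calls rested on single trees. It was 0 without weeping tree 2, when 227 genes of the stretch had an unadjusted p under 0.05, and 10 to 27 when any of standard trees 7, 8 and 10 and weeping trees 1 and 3 was omitted. It was 162 without standard tree 9 and 200 without weeping tree 4. The share of all tested genes called moved too. It was 0.107% without weeping tree 2, 18.1% without standard tree 9 and 21.0% without weeping tree 4. Without any of the other trees it was 1.37 to 2.53%. In the stretch the same shares were 0, 17.2 and 21.3%, and 1.07 to 2.89%. When each of these fits was made to call as many genes over the whole table as the fit with all trees, the stretch held 98 to 113 of them. That is 10.4 to 12.1% of its tested genes, against 11.4% of all genes. The authors' deposited table called 57 genes of the stretch at a corrected p of 0.05, with 33 higher and 24 lower in weeping trees, in a table where 4.46% of genes were called.

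The next question was how the differences were spread along the stretch. In steps of 1 Mb the share of changed genes moved between 4.60 and 21.3% with no steady rise toward WEEP. From 0 to 1 Mb it was 4.65%, where 4 of 86 tested genes changed and all 4 were higher in weeping trees. The next 4 steps held 13 of 100, 13 of 118, 9 of 78 and 11 of 86, and lay close to the share of the whole table.

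The share was 4.60% from 5 to 6 Mb (4 of 87 genes) and 4.69% from 6 to 7 Mb (3 of 64). It was highest from 7 to 8 Mb, where 10 of 47 tested genes changed, 8 of them lower in weeping trees. From 8 Mb on, the steps held 5 of 39, 6 of 32, 7 of 52, 3 of 28, 9 of 62 and, in the short last step, 8 of 48. These are shares of 10.7 to 18.8%. With 28 to 118 tested genes in a step, a few genes move a share by several points. With a tree left out and the number of calls held, the share from 7 to 8 Mb ranged from 17.0 to 25.5%. From 5 to 6 Mb it ranged from 3.45 to 9.09%, below the range from 7 to 8 Mb in the 8 fits. These steps were picked as the highest and the lowest on these data, and the fits share most of their trees. That order is therefore no independent support for a difference between them. Neither step kept its rank among all steps. Without standard tree 9 the step from 8 to 9 Mb had the larger share (17.5 against 17.0% from 7 to 8 Mb). Without standard tree 7 the share from 0 to 1 Mb was below that from 5 to 6 Mb (5.81 against 7.95%). With steps shifted by 0.5 Mb, the highest share was 28.1%, from 7.5 Mb on (9 of 32 genes, 8 lower). With steps of 2 Mb the order changed: the highest share was 15.5%, from 8 to 10 Mb (11 of 71 genes), and from 6 to 8 Mb it was 11.7% (13 of 111), close to the 11.5% of the whole table.

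The median absolute log2 fold change per step ran from 0.19 in the last step, nearest to WEEP, to 0.36 from 7 to 8 Mb. The tested share of genes fell toward the middle of the scaffold, from 79.7% at 2 to 3 Mb (118 of 148) to 31.5% at 11 to 12 Mb (28 of 89), and was back at 73.8% in the last step.

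**Figure D1:**
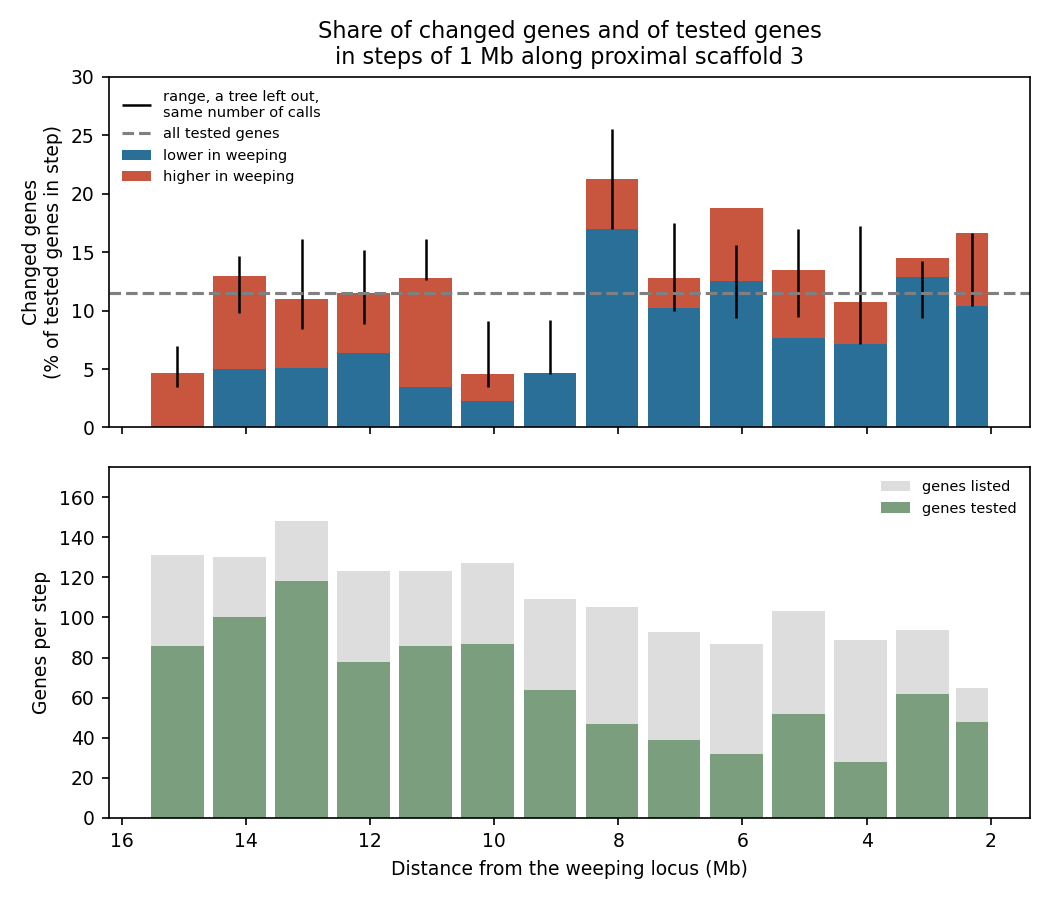
Steps of 1 Mb, the last one shorter, plotted by their distance from the weeping locus in Mb; above, bars give the percent of tested genes that changed, split by direction, vertical lines the range over 8 fits with a tree left out and the number of calls held, and the dashed line the 11.5% of all tested genes; below, bars give the genes listed and tested. The step of highest share (21.3%) lies about 8 Mb from the locus and not next to it.

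A division at 7 Mb, chosen after the step values were seen, gave a lower share before it than after it. From 0 to 7 Mb 57 of 619 tested genes changed (9.21%), 33 higher and 24 lower in weeping trees. From 7 Mb to the boundary 48 of 308 changed, 13 higher and 35 lower. The second share was larger in 26 of 29 settings. All settings use the same trees, and each fit with a tree left out enters with and without the number of calls held. The tally is therefore no independent support for a division placed on these data. The exceptions were the fit without weeping tree 1 (1.92 against 2.09%) and the settings without any call in the stretch, namely the fit without weeping tree 2 and an adjusted p of 0.01. Lower genes outnumbered higher ones after 7 Mb in each setting that made calls. Before 7 Mb the balance turned: upper-quartile scaling gave 27 each way, lane in the model 17 higher and 25 lower, and the trees of lane 6 alone 17 higher and 29 lower. Per the column names, lane 8 held weeping trees 3 and 4, and lane 6 held the remaining 6 trees.

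The 10 changed genes from 7 to 8 Mb were looked at one by one after that share was seen. The first 3, between 7043096 and 7322318, went both ways, with log2 fold changes of 1.85, -1.66 and 0.83. The other 7 lay between 7628450 and 7871735 and were all lower in weeping trees, with log2 fold changes of -1.29 to -0.42 (edgeR adjusted p 0.0255 to 0.0461). They stood among 14 tested genes in that interval, 10 of which had a negative fold change. Over all genes tested, 6.18% passed as lower in weeping trees. The interval was set after the values were seen, from the first to the last of the 7 changed genes that went the same way. Their common direction and their share of the 14 thus follow from that choice, and neither was tested. For the neighbours at 7662907 and 7664931, 82.9 and 85.3% of reads had a single position in the genome, and for the other 5 every read did.

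The genes of firmest difference were the 10 of smallest p in each direction among those without overlap between habits. The log2 fold changes were 0.40 to 1.85 for the higher and -2.60 to -0.49 for the lower ones, at edgeR adjusted p values of 0.0127 to 0.0220. They were scattered from 1222815 to 13062199.

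The gene of smallest p was ppa013277m.g (3189864 to 3192551). Standard trees 7 to 10 had 894, 1101, 1434 and 1353 reads in it, and weeping trees 1 to 4 had 3693, 3375, 2641 and 2396. The lowest weeping tree was well above the highest standard tree. In CPM, which are reads scaled to the size of the library, the level rose from 64.4 ± 12.9 to 159 ± 27.3 (mean ± SD of 4 trees). The log2 fold change was 1.31 (standard error 0.17, edgeR adjusted p 0.0127).

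Among the genes that rose, the next was ppa011089m.g (2442345 to 2445155), with 479, 437, 506 and 487 reads in standard and 742, 815, 631 and 669 in weeping trees. The levels were even within each habit, and the rise was small, with a log2 fold change of 0.55 (standard error 0.087, edgeR adjusted p 0.0149).

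Among the genes that fell, ppa008918m.g (12168310 to 12172793) had the smallest p. It had 1475, 1762, 1708 and 1891 reads in standard and 604, 776, 704 and 917 in weeping trees, so the groups lay far apart. The log2 fold change was -1.20 (standard error 0.16, edgeR adjusted p 0.0127). Only 59.5% of its reads had a single position, and the rest may come from a similar sequence. The next, ppa002586m.g (4298851 to 4303285), had 1648, 1535, 1687 and 1361 reads in standard and 598, 637, 644 and 842 in weeping trees. It fell from 84.3 ± 11.6 to 36.5 ± 9.20 CPM (edgeR adjusted p 0.0138).

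Close to that gene lay another 2 of the 20, and the 3 did not move the same way. The gene at 4320529 to 4322986 fell the most of the 20, from 85, 167, 79 and 104 reads in standard to 17, 23, 7 and 26 in weeping trees, with 22.4% of reads at a single position. The gene at 4329962 to 4342595 rose, from 3733, 3562, 3991 and 4376 reads in standard to 5983, 7425, 5847 and 4673 in weeping trees. Its log2 fold change was 0.57 (edgeR adjusted p 0.0160).

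At 1222815 to 1224663, standard trees had 122, 219, 101 and 159 reads and weeping trees 11, 45, 21 and 37. The groups stood apart, and the log2 fold change was -2.44 (standard error 0.41, edgeR adjusted p 0.0165). All 20 genes lost their call without weeping tree 2, as did the other 4 changed genes named by the rules, at edgeR adjusted p values of 0.0543 to 0.115. All 24 kept it without standard tree 9 and without weeping tree 4, and 9 to 17 did without any of the other 5 trees.

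**Figure D2:**
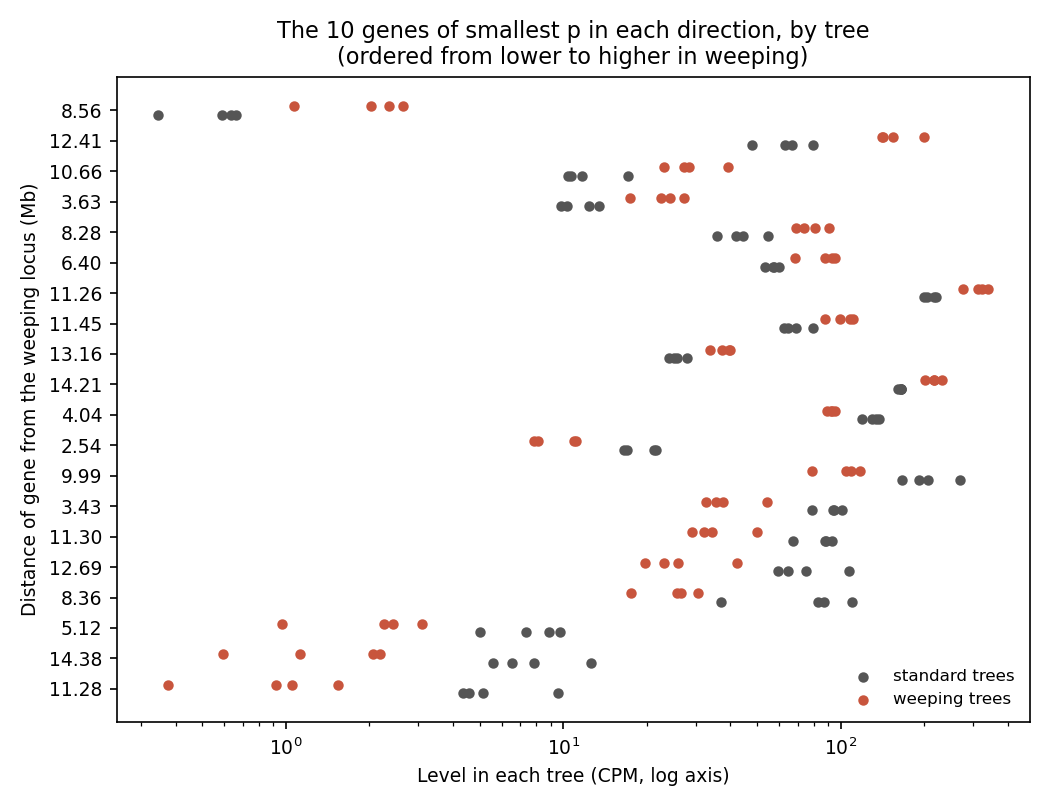
Level in each tree (CPM, log axis) of the 10 genes of smallest p in each direction, 1 gene per line, labelled by its distance from the weeping locus in Mb; grey points are the 4 standard and red points the 4 weeping trees. The genes were chosen for groups that do not overlap, and their fitted log2 fold changes run from -2.60 to 1.85.

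With 11.5% of all tested genes changed and 28 to 118 tested genes in a step, a step would rarely hold no changed gene. In each of the 14 steps the gene of smallest p passed the test, and 11 of these were among the 20. The other 3 were a gene at 615190 to 617052, which rose from between 460 and 860 reads in standard to between 940 and 1248 in weeping trees, and genes at 6627012 to 6633620 and at 8625265 to 8629937, which fell. Of these, the former had between 405 and 580 reads in standard trees and between 228 and 316 in weeping ones. The latter had between 1734 and 2446 in standard trees and between 997 and 1336 in weeping ones.

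**Figure D3:**
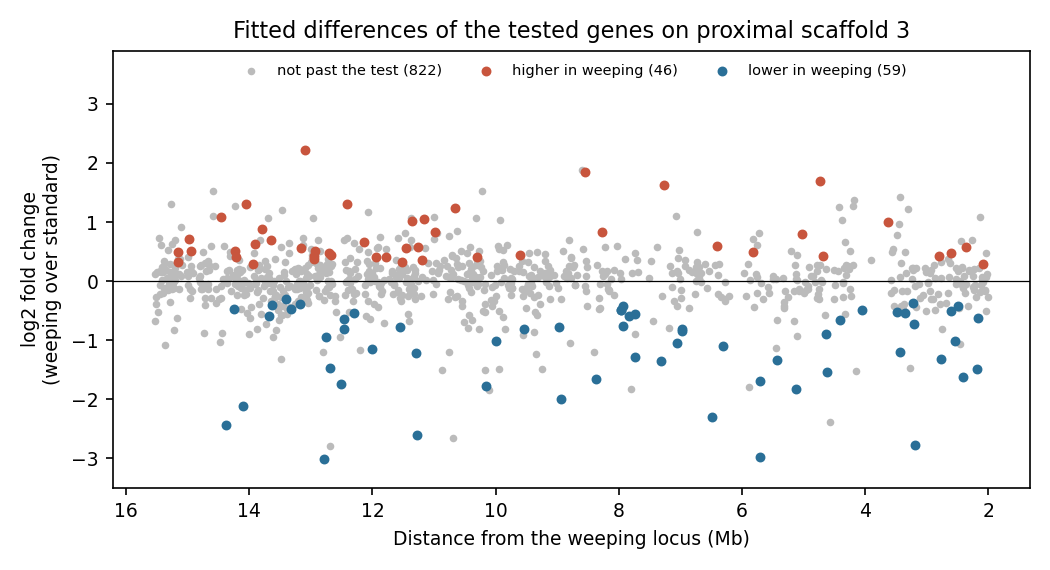
Log2 fold change (weeping over standard) of the 927 tested genes against distance from the weeping locus in Mb; red and blue points are the 46 genes higher and the 59 lower in weeping trees at an adjusted p of 0.05, grey points the rest. Changed genes lie along the whole stretch, and the 8 that changed at least 4-fold are spread over steps from 1 to 12 Mb. Among all 18520 tested genes, 142 changed that much, against these 8 of 927. Some of the 8 rest on few reads, such as 2, 0, 5 and 5 for the weeping trees at 2804948.

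The third question was which genes were near absent in some trees of one habit only. A gene counted when 1 to 4 trees of one habit had 3 reads or fewer and every tree of the other habit had 20 or more. In the proximal stretch 4 of 1527 genes (0.262%) met this on the weeping side, against 0.244% of the whole table, and 0 on the standard side, against 0.0682%. None of the 4 passed the edgeR test.

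The widest contrast was at 9714152 to 9716023. Weeping trees 1 and 2 had 3 and 5 reads there, while weeping trees 3 and 4 had 441 and 305 and standard trees 7 to 10 had 432, 743, 603 and 932. Weeping trees 1 and 2 were close to nothing, whereas weeping tree 3 was just above the lowest standard tree and weeping tree 4 below it. The log2 fold change between habits was -1.80 (standard error 1.05, edgeR adjusted p 0.274), and 81.8% of reads had a single position. Weeping trees 1 and 2 were in lane 6 and weeping trees 3 and 4 in lane 8, while the 4 standard trees were in lane 6 too. Weeping tree 2 had the deepest library of the 8.

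The gene at 11030059 to 11030780 had 0 reads in weeping tree 1, which allows up to 3, and 8, 40 and 16 in weeping trees 2 to 4. Standard trees had 105, 71, 74 and 85, above every weeping tree (edgeR adjusted p 0.0637). The gene at 4903354 to 4906901 had 1, 12, 21 and 28 reads in weeping trees and 197, 100, 33 and 60 in standard trees (edgeR adjusted p 0.0533). The groups did not overlap in either gene, and weeping tree 1 was the lowest in both.

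The fourth gene, at 2903256 to 2906814, had 2, 3, 22 and 39 reads in weeping trees and 208, 23, 84 and 164 in standard trees, so the groups overlapped (edgeR adjusted p 0.0707). Weeping tree 1 was near absent in all 4 genes and weeping tree 2 in 1 of them. Weeping tree 1 was also near absent in 49 of the 56 genes of this kind on the other scaffolds, and its part in the count was not tested beyond leaving it out. Without it the proximal stretch held 1 such gene.

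The 4 Mb around WEEP held 4 such genes on the weeping side and 2 on the standard side, of 601. WEEP was among them, with 1813, 1615, 1677 and 1711 reads in standard and 9, 6, 3 and 7 in weeping trees (ppa013325m.g, tied to WEEP by knowledge of the study). Each weeping tree was thus nearly empty there. In each of the 4 proximal genes at least 1 weeping tree had 28 reads or more. The same held for genes around WEEP at 13803400 and 14653189. Their weeping trees had 3, 19, 23 and 29 reads and 3, 9, 39 and 34 reads. At 14188940 weeping trees had 0, 1, 5 and 0 reads. Partial absence was thus not particular to the proximal genes.

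Since trees of one habit differed in these genes, genes were also taken by a split among the 8 trees whatever their habit. They had a gap of at least 4-fold in reads plus 1 between neighbouring trees in rank order and 30 or more reads in the highest tree, limits set after values were seen. In the proximal stretch 15 genes (0.982%) were split, against 0.951% of the whole table, and none of them changed by the edgeR test. The split parted the habits exactly in 0 of the 15. Around WEEP it did so in 3 of 9, beyond them in 1 of 5, and on the other scaffolds in 3 of 236. The low trees were weeping trees alone in 8 of the 15, standard trees alone in 2, and of both habits in 5. On the other scaffolds these were 98, 44 and 94 of the 236, so weeping trees alone were low more often than standard trees alone there too.

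The low sets differed along the scaffold. At 1153866 to 1158836 standard tree 8 and weeping tree 2 had 1 and 0 reads, whereas the other 6 trees had 198 to 504. At 3069827 to 3074397 standard tree 8 and weeping trees 1 and 2 had 3, 0 and 1 reads, and the other 5 had 230 to 754. Every read of both genes had a single position. Neither followed the habit (edgeR adjusted p 0.632 and 0.682).

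Weeping trees 1 and 2 alone were low in 3 genes, at 2903256 and 9714152 and at 6225371 to 6228371, where both had 0 reads and the other trees 6 to 42. At 12322017 to 12326235 weeping tree 1 had 10 reads and weeping tree 2 had 115, against 280 to 792 in the other 6. Weeping tree 1 belonged to the low set in 9 of the 15 genes, weeping tree 2 in 7 and weeping tree 4 in 0. Single trees were not counted in this way on the other scaffolds.

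Standard trees alone were low in 2 genes. At 330490 to 335808 standard trees 9 and 10 had 100 and 170 reads and the other 6 had 957 to 3026. At 12160337 to 12161228 standard trees 8, 9 and 10 had 4, 5 and 15 reads, while standard tree 7 had 859 and weeping trees had 677, 811, 350 and 581. Standard tree 7 thus lay with the weeping trees, and 28.3% of the reads had a single position. Nearer to WEEP, a gene at 14378845 to 14382309 had the same low trees, with 2, 0 and 0 reads in standard trees 8 to 10, 90 in standard tree 7 and 147 to 197 in weeping trees.

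**Figure D4:**
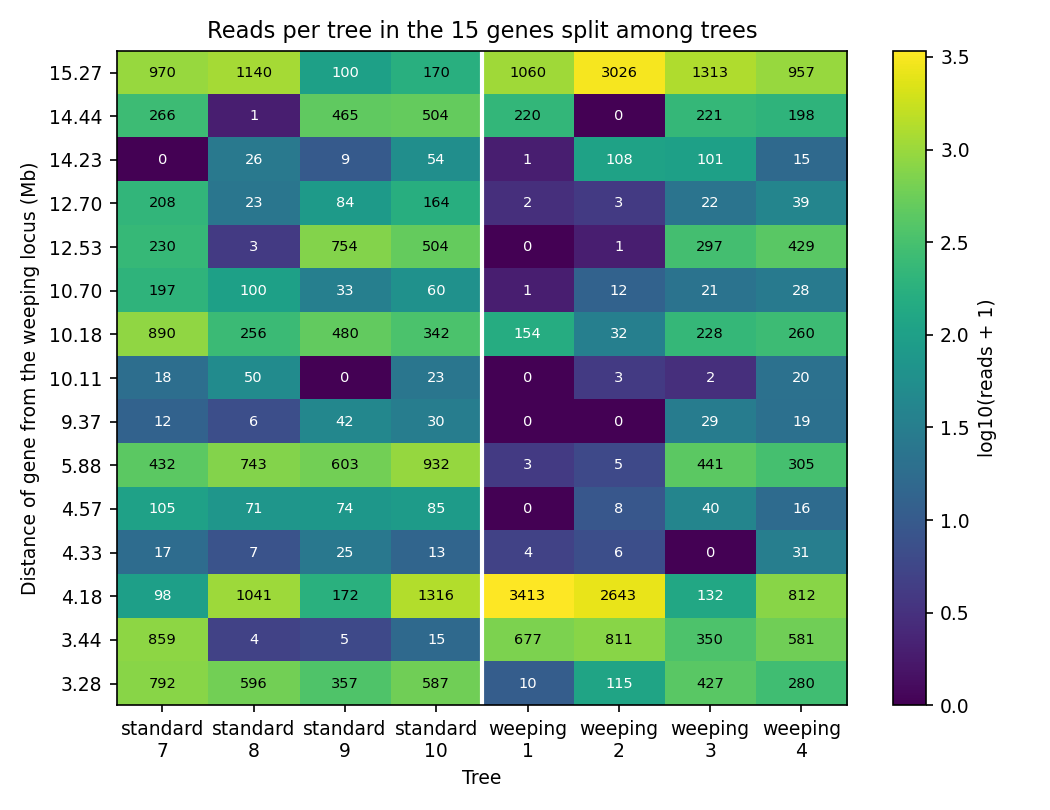
Reads in each of the 8 trees (printed, and coloured as log10 of reads plus 1) for the 15 genes split among trees, 1 gene per line, labelled by distance from the weeping locus in Mb; the white line parts standard from weeping trees. The low sets change from line to line, and none of the 15 is low in the 4 weeping trees alone or in the 4 standard trees alone.

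At the edge of the stretch the 3 tested genes just inside (13567250, 13585947 and 13593265) had log2 fold changes of -0.51, 0.13 and -0.26, and none passed. Of the 3 just outside, those at 13607017 and 13642569 had -0.09 and 0.19 and did not pass. The one at 13631252 to 13633463 rose, from 1750, 1345, 1919 and 1846 reads in standard to 3341, 4884, 3753 and 2779 in weeping trees (log2 fold change 1.06, edgeR adjusted p 0.0127).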

How the data were processed

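The authors deposited 1 table with, per gene and library, read counts as total exon reads and as unique exon reads (placed at 1 position), per the file headers. The deposited RPKM values use the listed length, which equals the whole gene span for all members. From Baggerley's test in the deposited table, the corrected p-value and the sign of the fold (a signed score) were used. Read length was 50 bp, per the labels' protocols. The sources used here do not state aligner, build or annotation. Another 149 columns were not used. Starts, taken to be counted from 0, are given from 1. None of the identifiers was found in the RefSeq gene table, so few are printed.

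For the main test, edgeR 4.0.16 (R 4.3.3) took total exon reads of all 8 trees, with filterByExpr (minimum count 10), TMM, the quasi-likelihood F-test on habit and Benjamini-Hochberg adjustment over 18520 genes. Standard errors were derived from F. DESeq2 1.42.0, limma-voom (limma 3.58.1), other scalings and filters, single-position reads, lane, gene length and each tree left out were alternatives. The procedure was tested on simulated data. Named genes were, by rule, the 10 of smallest p in each direction without overlap, the first of each step, those near absent, 3 on each side of the boundary and the 5 most abundant; others were named after their values were seen. Members, rules and alternatives were chosen with earlier results of these data known. Limits on reads cover counting error only.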

Additional observations from a re-analysis of the deposited data

Results flagged for a closer look

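In 84 groups of 4 trees, the gap of the extreme tree to its nearest neighbour was set against the whole range of the group, and 5 groups had an extreme tree by that ratio; chance gives about 5% of groups. At 1381742 standard tree 7 had 161 CPM against 165 to 166 in the other standard trees (ratio 0.893), a narrow range. At 4320529 standard tree 8 had 9.60 CPM against 4.37 to 5.14 (0.851). At 11030059 standard tree 7 had 5.64 CPM against 4.08 to 4.20 (0.920). At 13585947 standard tree 9 had 12.4 CPM against 10.9 to 11.03 (0.893). At 13593265 weeping tree 4 had 3.08 CPM against 1.02 to 1.24 in the other weeping trees (0.892). The first 2 of these genes were among those that changed between habits, and the other 3 were not.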

How the results depend on the processing

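The 105 changed genes became 80 to 121 with other scalings and filters, limma-voom, single-position reads, lane as a term, lane 6 alone, an offset for gene length, or a boundary 1 or 3 Mb lower. They became 194 with DESeq2 and, by construction fewer, 38 where at least 2-fold was required and 0 where the adjusted p had to be under 0.01 (301 at an unadjusted p under 0.05; at 0.01 DESeq2 gave 106 and limma-voom 0). Leaving out a tree gave 0 to 200. The share of all tested genes called shifted as well. In the settings that gave 80 to 121 it was 8.22 to 13.1%, against 7.37 to 13.1% in the stretch. With DESeq2 it was 20.9% in both. Where at least 2-fold was required it was 3.83% (4.10% in the stretch), and at an adjusted p under 0.01 it was 0.0486%. With a tree left out it was 0.107 to 21.0%. The causes of these shifts were not tested. The 4 near-absent genes became 2 at a limit of 1 read, 7 at 5 reads, 9 with at least 10 and 2 with at least 50 reads in the other habit, and 1 to 6 with a tree left out. Of 758 values of 38 named genes under alternatives, 630 kept their side of the threshold, 111 lost it, 17 gained it and 0 changed sign. Of these genes 13 had no call to lose. The 25 that changed, with the gene at 13631252 among them, had 499 of the values. Of those, 388 kept the call and 111 lost it. Only 1 of the 25 kept its call in every fit at an adjusted p of 0.05. It was the gene at 13631252, which lies outside the stretch, so no named gene of the stretch did. No paired analysis was possible because the habits share no tree numbers. Depth limits the near-absent genes, whose low trees have 0 to 3 reads.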

Other observations

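Of the 5 genes of highest RPKM in the stretch, 1 stood far above the rest. The gene at 12230357 to 12231711 had a mean of 2563 RPKM over the 8 trees, against 386 to 827 for the next 4. It took 6.36 to 11.8% of the reads of the stretch in standard and 6.31 to 8.02% in weeping trees and did not pass the test (log2 fold change -0.39, edgeR adjusted p 0.289). The gene at 10960874 to 10961660 was the only one of the 5 that changed. It had 10067, 5982, 12207 and 9392 reads in standard and 4404, 4595, 5178 and 6057 in weeping trees, so the groups overlapped slightly (log2 fold change -0.90, edgeR adjusted p 0.0397), and 39.8% of its reads had a single position.

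Among the 105 changed genes, 18 pairs were neighbours in the order of tested genes, which is 1.94% of 926 neighbour pairs, against 1.53% of 18480 in the whole table. Of these pairs 14 went the same way (77.8%), against 196 of 283 in the whole table (69.3%). Neither difference was tested. Of the changed genes 17.1% had under 90% of their reads at a single position, against 12.4% of tested genes in the stretch. The edgeR calls and the authors' deposited table shared 44 genes, or 41.9% of the former and 77.2% of the latter, each in the same direction in both.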
